A study of Caenorhabditis elegans with 2 samples.

Results

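In the optimal list of HLH-6 binding, 261 regions (28.6%, beside 651 others) had their summit at the promoter of exactly 1 protein-coding gene and away from short RNA genes. The promoter of a gene was taken as the 1000 bp before and the 200 bp after each of its annotated transcription start sites (TSS), and summits no farther than 200 bp from a short RNA gene (tRNA, snoRNA or snRNA) were left out. The 261 regions lay at 250 genes. The measured animals were late embryos of the hermaphrodite C. elegans strain RW10702, taken whole at 3.5 hours after egg-bleach synchronization, in 2 biological replicates of 1 group. The strain is a stable transgenic line in which HLH-6 carries GFP and FLAG at its C terminus, and chromatin was precipitated with an antibody against GFP. The promoter that drives the transgene is not given in the sources used here, the control experiment that the labels name was not analysed here, and no untagged or other group was compared. The strength of a region is given by the authors' signal value, whose scale is not stated, from the optimal list and from each replicate's own list. No list gives read counts, so sequencing depth is unknown.

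HLH-6 belongs to the achaete-scute branch of the basic helix-loop-helix (bHLH) factors and is best known from the secretory gland cells of the pharynx. Proteins with a bHLH domain bind DNA as dimers at the E-box, CANNTG. Promoters are the stretches at the 5′ end of genes where RNA polymerase starts. In worms the 5′ ends of many mRNA precursors are removed by trans-splicing, so an annotated start can lie downstream of the place where transcription begins. Cells that express HLH-6 are a small part of a whole embryo, and the lists do not show from which cells a region's signal came.

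The sequences at the strongest summits show what these regions look like. Each holds the summit and 50 bp on either side from the NCBI WBcel235 genome (ce11 coordinates), read 5′ to 3′ on the strand of the gene. Capitals mark an E-box (CANNTG), the GA repeat GAGAGA or the CA repeat CACACA on either strand, so that TCTCTC and TGTGTG are marked too. The 12 windows that follow are the strongest among those eligible for printing, which overlap no annotated exon.
K12H4.5 (chrIII:8043913-8044013, plus strand): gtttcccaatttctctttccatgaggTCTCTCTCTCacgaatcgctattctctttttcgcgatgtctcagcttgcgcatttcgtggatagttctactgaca
M01F1.9 (chrIII:3499985-3500085, minus strand): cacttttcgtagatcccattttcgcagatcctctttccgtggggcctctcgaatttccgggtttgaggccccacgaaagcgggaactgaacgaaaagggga
W01D2.3 (chrII:14804669-14804769, minus strand): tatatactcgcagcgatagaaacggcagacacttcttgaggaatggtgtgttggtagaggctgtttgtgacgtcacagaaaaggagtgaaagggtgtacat
eel-1 (chrIV:3050575-3050675, minus strand): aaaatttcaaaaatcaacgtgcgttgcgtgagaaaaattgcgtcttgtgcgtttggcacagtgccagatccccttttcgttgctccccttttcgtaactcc
plrg-1 (chrV:10808041-10808141, minus strand): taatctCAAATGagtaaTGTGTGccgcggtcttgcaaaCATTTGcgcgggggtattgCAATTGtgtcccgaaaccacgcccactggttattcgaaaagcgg
myrf-2 (chrX:10188566-10188666, minus strand): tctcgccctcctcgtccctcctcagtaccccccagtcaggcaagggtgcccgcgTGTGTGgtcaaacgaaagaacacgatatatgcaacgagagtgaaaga
ccdc-47 (chrIII:3916752-3916852, plus strand): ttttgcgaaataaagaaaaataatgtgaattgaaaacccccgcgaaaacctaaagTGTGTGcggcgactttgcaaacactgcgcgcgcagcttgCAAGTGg
usp-4 (chrIV:6756568-6756668, plus strand): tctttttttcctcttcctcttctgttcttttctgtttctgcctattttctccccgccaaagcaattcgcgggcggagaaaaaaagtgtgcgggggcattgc
daf-19 (chrII:10169513-10169613, minus strand): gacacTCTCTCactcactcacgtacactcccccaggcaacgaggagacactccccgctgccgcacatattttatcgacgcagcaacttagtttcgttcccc
rpl-3 (chrIII:3867558-3867658, plus strand): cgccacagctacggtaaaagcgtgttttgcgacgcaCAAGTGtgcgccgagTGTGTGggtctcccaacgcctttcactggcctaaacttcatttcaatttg
npp-8 (chrIV:1595922-1596022, minus strand): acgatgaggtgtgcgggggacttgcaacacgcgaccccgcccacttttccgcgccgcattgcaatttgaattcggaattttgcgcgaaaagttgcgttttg
Y32B12B.4 (chrV:16553036-16553136, plus strand): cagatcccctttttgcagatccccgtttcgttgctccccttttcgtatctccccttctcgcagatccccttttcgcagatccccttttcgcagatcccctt
A further 3 windows are from strong regions that hold the GA repeat, the hexamer with the largest excess at the summits. Windows at sup-37, nhr-40 and arf-1, with 1 copy of GAGAGA each, met the same rule and are not shown. Those shown are therefore not typical in their number of repeats.
ain-1 (chrX:16612570-16612670, plus strand): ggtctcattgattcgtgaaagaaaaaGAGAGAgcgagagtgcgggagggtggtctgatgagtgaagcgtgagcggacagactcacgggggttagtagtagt
B0348.10 (chrV:8795-8895, minus strand): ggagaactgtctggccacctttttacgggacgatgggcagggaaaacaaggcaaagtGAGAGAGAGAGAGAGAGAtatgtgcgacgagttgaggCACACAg
F46H5.2 (chrX:7265107-7265207, plus strand): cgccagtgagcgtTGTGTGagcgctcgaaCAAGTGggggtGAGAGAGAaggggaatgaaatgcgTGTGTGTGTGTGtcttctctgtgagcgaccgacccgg

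Of the 12 strongest windows shown, 3 hold an E-box, 2 a GA repeat and 4 a CA repeat. The windows at plrg-1, ccdc-47 and rpl-3 hold an E-box and a CA repeat together. The 6 windows at M01F1.9, W01D2.3, eel-1, usp-4, npp-8 and Y32B12B.4 hold none of the 3 sequences. At B0348.10 an unbroken run of GA holds 7 overlapping copies of GAGAGA, and at F46H5.2 the E-box CAAGTG stands beside a run of GA, with CA repeats on both sides.

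The windows at plrg-1, usp-4 and npp-8 hold the word GCGGGGG, followed after 2 bases by TTGC. This spelling was chosen after these windows were seen. It occurs 10 times in the nuclear genome on either strand, of which 3 lie in regions of the optimal list, and those are these 3. Of the 10, 5 lie in a coding promoter as defined above. The shorter GGGGG, followed after 2 bases by TTG, occurs 1193 times, of which 319 lie in coding promoters and 14 in regions of the list. Of 19973 windows of the same length centred 250 bp upstream of each coding gene, 0 hold the longer spelling. GCGGGGG alone was in 9 of the 261 summit windows (3.45%), 0 of their upstream flanks and 0.280% of all coding promoter windows. It was not particular to this class. Outside coding promoter windows 10 of 336 regions of the list held it, as did 2 of 92 in windows of 2 or more coding genes. Near short RNA genes, 5 of 223 did. GATCCCC, which recurs in tandem in the window of Y32B12B.4, was in 6 summit windows (2.30%), at eel-1 (both regions), Y32B12B.4, rps-24, C09E7.7 and col-142. It was in 2 upstream flanks and in 0.250% of all promoter windows. All 6 summit windows also hold words of 31 bases that occur more than once in the genome, which are described below. A match is a description of the letters and names no bound protein.

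Regions at single coding promoters were on the whole not the strongest of the optimal list, although the leading ones were very strong. Signal values spanned 85.7 to 635. Their median was 98.9, and that of the whole list 105. Of the 20 strongest regions of the list 3 were of this kind, of the 100 strongest 10, and of those in the upper part of the list, split at its median, 104. The whole list includes the 223 regions near short RNA genes, whose median was 148. Away from short RNA genes, regions in promoter windows shared by coding genes had a median of 107.5. Regions outside coding promoter windows had a median of 97.2, slightly below that of the 261. In the lists of 30000 regions made for each replicate, whose medians were 18.9 and 19.5, the 261 regions had median values of 51.9 and 53.6.

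The strongest lay 524 bp upstream of K12H4.5, a gene for an uncharacterized protein, and reached 635 in the optimal list, 320 in replicate 1 and 315 in replicate 2. Next came a region 978 bp upstream of M01F1.9, a gene for a protein with an arrestin N-terminal domain, with 528 and replicate values of 262 and 266. Its summit lies in an intron of the neighbouring gene M01F1.8. Both ranked among the 7 strongest regions in each replicate, and a wide gap separated them from the rest. The region 161 bp upstream of T13C5.6, a phosphatidic acid phosphatase-type gene on X, had 339, with 153 and 185, and its summit lies inside the noncoding RNA gene C14F11.14. W01D2.3, which encodes a receptor expression-enhancing protein of the endoplasmic reticulum (ER) family, had a signal value of 258, with 129 and 136.

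The next ranks are given by the role of the gene. eel-1, a HECT-type ubiquitin ligase gene, had 2 summits, at 521 and 721 bp upstream (229 and 166), and usp-4, a ubiquitin hydrolase gene, had 194 (replicates 113 and 80.5). plrg-1, a splicing factor gene, had 203, with 110 and 92.3. ccdc-47, for a subunit of a chaperone of ER membrane proteins, had 201, with 111 and 94.2. These regions were high in both replicates, with the replicate 1 value above that of replicate 2 in each. The ribosomal protein genes rpl-3 (181, with 93.4 and 87.5) and rps-24 (172 and 150 at 2 summits) followed, as did npp-8, a nucleoporin gene (174, with 74.8 and 98.9). scc-2, the cohesin loader gene, had 155, with 74.2 and 83.04. bag-1, for a regulator of the Hsp70 chaperone, had 152, with 65.2 and 85.7.

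Among the 30 strongest were also genes of transcription and chromatin. myrf-2, a gene for a membrane-bound transcription factor of the myelin regulatory factor family, had 202, with 98.2 and 103. daf-19, the RFX factor gene of ciliated neurons, had 191, with 88.3 and 100.7. bet-2, a bromodomain gene, had 152 at its stronger summit, with 100.6 and 81.8. Each lay well above the quartile of 115 that marks the upper part of the 261 regions. sup-37, a zinc finger gene, had 151, and swsn-3, a gene of the SWI/SNF remodelling complex, had 149, with a wider gap between its replicate values of 90.5 and 55.7. kin-29, a salt-inducible kinase gene, closed the 30 with 146. The others of the 30, at Y32B12B.4, R148.3, tsp-21, T24B8.3, K05C4.7, Y39E4B.6, spc-1, ZK816.3 and T28F4.1, ran from 147 to 173.

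**Figure D1:**
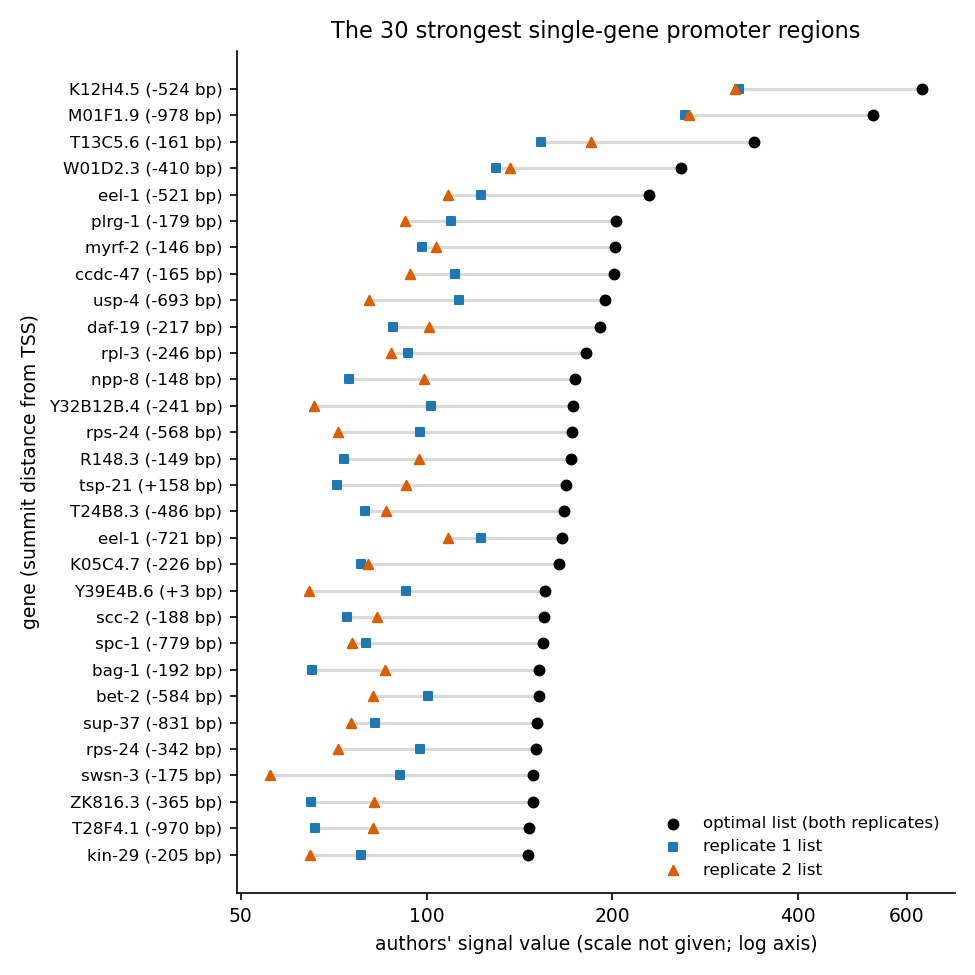
Signal values (log axis, scale not given) of the 30 strongest regions at a single coding promoter in the optimal list (black) and in the lists of replicate 1 (blue) and replicate 2 (orange), with the summit's distance from the TSS beside the gene. K12H4.5 (635) and M01F1.9 (528) stand apart, and the 30th, kin-29, is at 146.

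Words that occur more than once in the genome were rare under these summits. Of the 71 words of 31 bases in each summit window, none was repeated elsewhere in 248 of 261 regions. The 13 others (4.98%) compare with 7 of 92 regions in promoter windows shared by coding genes (7.61%). Outside coding promoter windows, 30 of 336 regions (8.93%) held repeated words. Near short RNA genes, 133 of 223 regions (59.6%) did. Differences between these shares were not tested. Repeated words were more frequent among the leading regions, in 6 of the 30 strongest against 5 of the 131 weakest. The stronger summit at eel-1 had 49.3% repeated words and its other summit 100%, the summits at rps-24 had 26.8% and 36.6%, Y32B12B.4 19.7% and T13C5.6 11.3%. K12H4.5, M01F1.9 and W01D2.3 had none. The part of repeats in the signal of those regions was not tested.

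GA and CA repeats stood at the summits and thinned out with distance on both sides. GAGAGA was within 50 bp of the summit in 72 of 261 regions (27.6%, exact 95% interval 22.3 to 33.4) and in 15 windows of the same length centred 500 bp upstream (5.75%). In an exact two-sided McNemar test, adjusted over 8 sequences by Benjamini-Hochberg (BH), the difference of 21.8 percentage points had p = 6.47e-10. CACACA was in 63 (24.1%, interval 19.1 to 29.8) and 10 windows (3.83%), an excess of 20.3 points (exact adjusted p = 5.31e-11). Over all coding promoters, 6.48% and 4.99% of windows held them. At least 1 of the repeats was in 119 regions (45.6%), both in 16, against 10.97% of promoter windows with at least 1. GGGCGG, the core of GC boxes, was in 29 regions (11.1%) and 9 flanks (3.45%, exact adjusted p = 0.000939), and in 2.19% of all promoter windows. These p-values treat regions as independent and measure regions, not replicates. The 8 sequences were chosen as common in worm promoters or as reported for the whole optimal list. That list holds these regions, so for sequences chosen from it the p-values are a description and no independent support.

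Sequences rich in A and T were scarce at the same summits. A run of 6 T was in 28 summit windows (10.7%) and 116 flanks (44.4%, exact adjusted p = 9.01e-17). TTTCAG, the usual worm splice acceptor, was in 8 against 49 (exact adjusted p = 2.62e-08), and TATAAA, the core of TATA boxes, in 7 against 32 (exact adjusted p = 0.000112). GATAA, the core bound by GATA factors, was in 24 against 55 (exact adjusted p = 0.000203), and TAATTA, a homeodomain core, in 2 against 14 (exact adjusted p = 0.00418). The summit windows had a median GC content of 52.5% and the flanks 33.7%. Their part in these differences was examined only by description. Among the 1158 promoter windows with a GC content in the interquartile range of the summits (48.5% to 56.4%), 16.5% held GAGAGA and 9.59% CACACA, against 28.3% and 23.9% of the 138 regions in that range. At least 1 of these repeats was in 24.2% of those promoter windows and 45.7% of those regions. GGGCGG was then in 10.4% of promoter windows and 12.3% of regions, and the E-box in 37.2% and 35.5%. Of the scarce sequences, TATAAA was in 2.16% of these promoter windows and 2.17% of regions, and TAATTA in 0.604% and 0.725%, shares that rest on 3 regions and 1. GATAA was in 12.1% and 5.07%, TTTCAG in 7.77% and 2.17%, and the T run in 13.1% and 7.97%.

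**Figure D2:**
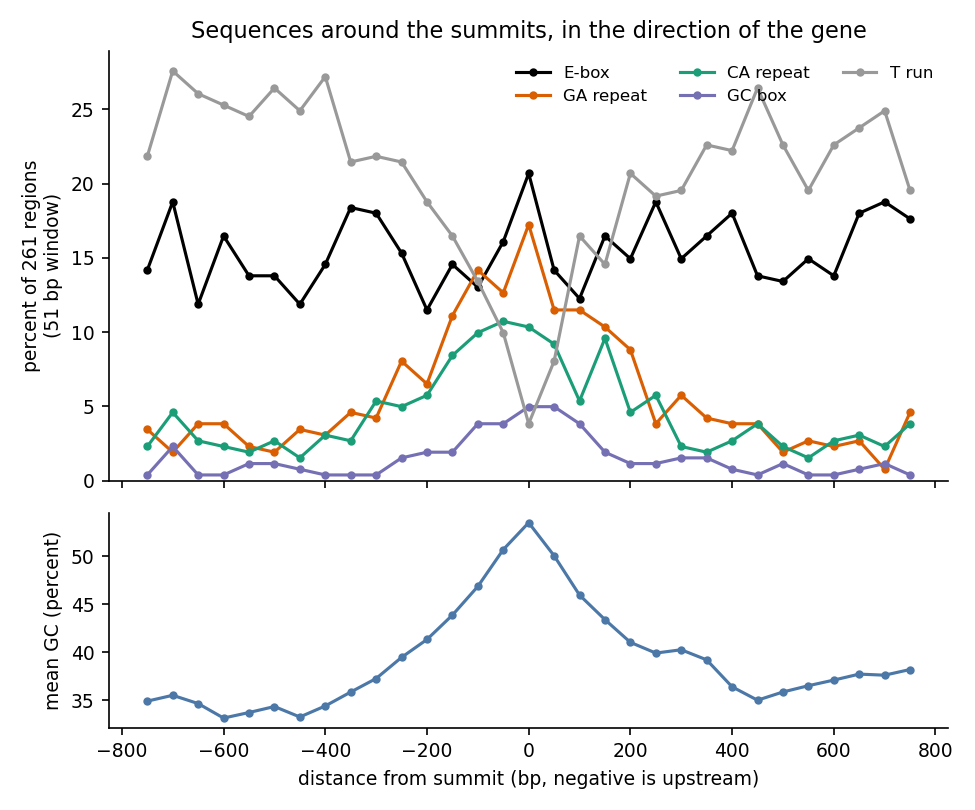
Percent of the 261 regions whose 51 bp window holds each sequence (upper panel) and mean GC content (lower panel) by distance from the summit, with negative values upstream on the strand of the gene. The GA repeat reaches 17.2% at the summit and 1.92% at 500 bp upstream, the T run falls to 3.83% at the summit, and GC content peaks at 53.5%.

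The E-box did not differ detectably between summits and flanks. It was in 87 regions (33.3%, exact interval 27.6 to 39.4) and in 72 upstream flanks (27.6%), with 65 regions that held it only at the summit and 50 only in the flank (exact McNemar p = 0.191). All coding promoter windows held it in 30.8%. Set against flanks 1000 bp upstream, the difference turned to -0.766 points. Without replicate 2, regions taken from replicate 1 alone had an excess of 9.35 points (exact p = 0.0235), and without replicate 1 it was 7.66 points (exact p = 0.0671). By sequence, CAAGTG was in 17 summit windows and 7 flanks, CAGCTG in 10 and 6, CAAATG in 20 and 18, and CAACTG in 18 and 16. CAATTG, in 7 and 10, was the only spelling more frequent in flanks. The strongest region with an E-box was at plrg-1 (203), whose window holds CAAATG, its reverse CATTTG and CAATTG.

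E-boxes were least frequent in the strongest regions, and CA repeats most frequent there. In 4 groups of 65 or 66 regions from the strongest to the weakest, the E-box was in 13 of 65 regions and then in 33.8%, 41.5% and 37.9%, and CACACA in 35.4%, 23.1%, 23.1% and 15.2%. GAGAGA showed no such order, with 23.1%, 35.4%, 24.6% and 27.3%. Regions with an E-box had a median signal value of 97.5, those with CACACA 106 and those with GAGAGA 100.05. The longest repeats were not at the top, as with 8 overlapping copies of CACACA at spc-1 (signal value 155) and 8 of GAGAGA at miz-1 (108), 2 regions chosen after their values were seen. Of all 261 regions, 92 held neither repeat and no E-box. These orders were not tested.

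Summits lay most often just upstream of the TSS. The median distance was 285 bp upstream, with quartiles of 563 and 111 bp, and 232 of 261 summits were upstream. Between 300 and 1 bp upstream lay 106 summits (40.6%), a stretch that holds 25.8% of the genome positions that meet the same rule (every 200 bp, 117383 positions). The 100 bp bins that start 300 and 200 bp upstream held 1.66 and 1.79 times the share of such positions. At or downstream of the TSS lay 29 summits (11.1% against 17.95% of positions). From 1000 to 701 bp upstream there were 49 (18.8% against 23.8%). No test was made of these shares.

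**Figure D3:**
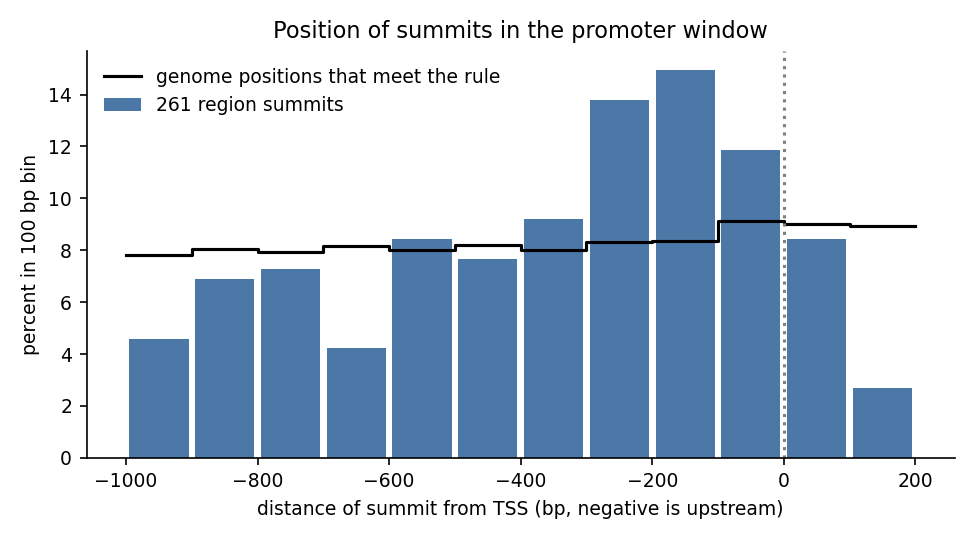
Percent of the 261 summits (bars) and of genome positions that meet the same rule (line) in 100 bp bins of distance from the TSS, negative upstream. The bins that start 200 bp (14.9%) and 300 bp upstream (13.8%) are the highest, and from 100 to 200 bp downstream there were 2.68%.

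Most summits were between genes. By annotation, 165 were intergenic (63.2%), 57 in introns, 20 in untranslated regions and 19 in coding sequence. The summit of 20 regions lay inside another coding gene and that of 32 inside a noncoding gene, as at T13C5.6, tsp-21 and T28F4.1 among the 30 strongest. The nearest coding gene upstream ran in the same direction at 140 regions and away from the bound gene at 121. The median gap to that gene was 2757 bp, and the rule itself favours long gaps, since a summit in the windows of 2 genes is left out. Some sequences differed in share between positions more than others did, and no test was made. From 200 bp upstream to 200 bp downstream, the E-box was in 34.3% of 99 regions and GAGAGA in 26.3%. From 1000 to 501 bp upstream, they were in 31.7% and 24.4% of 82 regions. GGGCGG was in 14.1% of the former and 7.32% of the latter, and CACACA in 23.2% and 30.5%. Between these stretches, from 500 to 201 bp upstream, CACACA was in 18.75%.

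The leading regions of the optimal list mostly stood high in both replicates, and the weaker ones less often. All 261 regions overlapped a region in the list of each replicate by at least 1 bp. Each replicate's list was read down to a rank equal to the length of the optimal list. Within it stood 178 of the 261 in replicate 1, 184 in replicate 2, 118 in both and 17 in neither. Of the 60 strongest, 59 were in both, whereas of the weakest 66 only 4 (6.06%) were. The optimal list was itself made from both replicates, so its order is not independent of theirs. Ranks still differed among the 60, as at swsn-3 (117 in replicate 1 and 474 in replicate 2), cal-5 (735 and 142) and F09C8.2 (170 and 1460), 3 regions chosen after their ranks were seen. The log2 ratio of replicate 2 to replicate 1 had a median of 0.04 and ran from -1.61 at lem-2, a gene for a protein of the inner nuclear membrane (94.0 and 30.9), to 1.68 at cpt-1 (23.1 and 74.0). The window at lem-2 also had the lowest GC content, 18.8%, and both genes were named after their values were seen. Across the 261 regions, Pearson's r of the log2 values was 0.46, and 0.24 without the 4 strongest (n = 257). Regions of 1 genome share both libraries and the optimal list's requirement of a high pooled rank, so r is only a description.

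**Figure D4:**
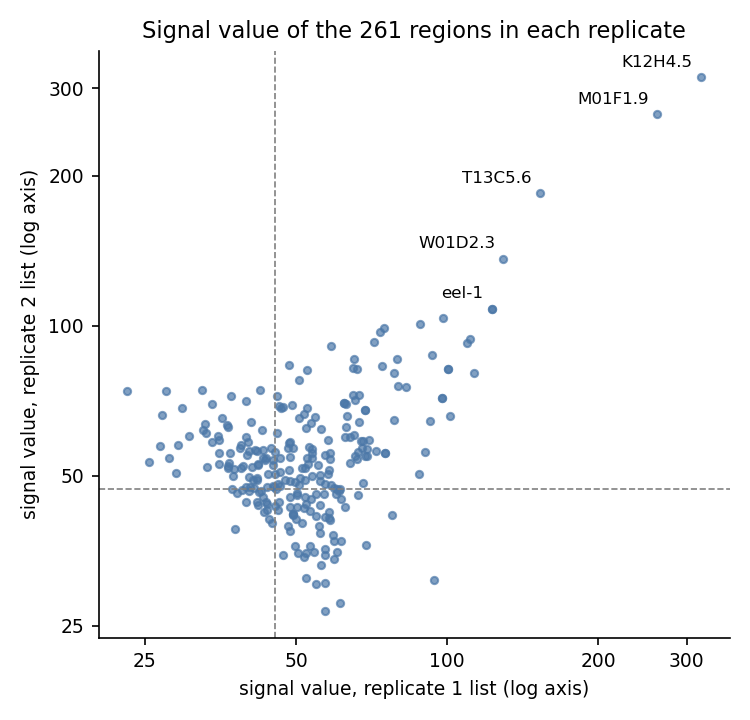
Signal value of each of the 261 regions in the list of replicate 1 against replicate 2 (log axes), with dashed lines at the rank of each list that equals the length of the optimal list (45.3 and 47.01). Labelled regions at the upper right are high in both, and most others cluster near the lines.

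A region was at 250 of 19973 coding genes (1.25%), the background for every count of genes that follows. Gene lists were chosen by symbol with earlier results of these data known, and the intervals are exact, over genes only. They are not adjusted for the number of lists, and no list was tested. An interval above or below the background is therefore a description only. Of the translation and secretion lists, ER and vesicle traffic genes had a share with an interval above that background. Of 81 ribosomal protein genes 2 had a region (2.47%, interval 0.3004 to 8.64), rpl-3 and rps-24, both among the 30 strongest, and of 70 translation factor and tRNA synthetase genes 0 did. Of 122 ER and vesicle traffic genes 5 did (4.10%, interval 1.34 to 9.31), led by the small GTPase genes arf-1 (114, with 66.8 and 72.6) and sar-1 (98.3), followed by the ubiquitin-pathway gene ufd-3 (90.2), rab-14 (88.9) and the chaperone gene hsp-3 (88.1). All but arf-1 were below the median of the 261 regions. Of 89 RNA processing genes 4 did (4.49%), namely the cleavage factor genes cpf-2 (107) and cpsf-1 (105), the exosome gene exos-8 (98.2) and the deadenylase gene ccr-4 (87.6). The splicing factor gene plrg-1 is not on that list.

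Among transcription factor genes, nuclear hormone receptors and the mixed list of other factors had shares with intervals above 1.25%. Of 274 nuclear hormone receptor genes 11 had a region (4.01%, interval 2.02 to 7.07), led by nhr-40 (132, with 75.3 and 55.4), nhr-48 (117, with 51.9 and 66.5), nhr-3 (106), nhr-66 (97.6) and nhr-64 (96.5). Of 150 other factor genes 9 did (6%, interval 2.78 to 11.1). After daf-19, these were tbx-2 (102, with 48.4 and 51.3), the T-box gene of the anterior pharynx, atf-6 (101.2), the ER stress factor gene, mep-1 (99.5) and dmd-7 (98.1). The members of both lists not named here were lower, from 85.9 to 94.4, below the median of the 261 regions. Of 93 homeobox genes 2 did (2.15%), ceh-34 (92.3, with 40.9 and 52.2), the sine oculis-type gene of the pharynx, and zag-1 (91.3). The window at ceh-34 holds 5 overlapping copies of CACACA and no E-box.

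No bHLH gene by name had a region (0 of 40, interval up to 8.81%), and none of 10 pharyngeal gland genes did (interval up to 30.8%). W06H8.6, which RefSeq describes as a protein with a bHLH domain, had a region 842 bp upstream with a signal value of 94.3, with 50.2 and 45.8. It was named after its value was seen.

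Chromatin genes with a region numbered 7 of 162 (4.32%, interval 1.75 to 8.70). swsn-3 (149) and swsn-7 (131, with 66.8 and 63.97) belong to the SWI/SNF remodelling complex. met-1 (121), for a histone H3 methyltransferase, utx-1 (109), for a histone H3 demethylase, and his-72 (103), a histone H3.3 gene, followed. Among 97 kinase and phosphatase genes 4 did (4.12%), kin-29, pptr-2 (111), vhp-1 (109) and the protein kinase C gene pkc-1 (100.7). Among 56 genes of Wnt, Notch, TGF-beta and Ras signalling 2 did (3.57%), lit-1, a Nemo-like kinase gene (97.6), and the presenilin gene sel-12 (88.4). Of 486 proteasome and ubiquitin genes, mostly F-box genes, 2 did (0.412%, interval 0.0499 to 1.48), usp-4 and fbxa-176 (96.6). The ubiquitin ligase gene eel-1, the ubiquitin hydrolase gene duo-3 and the F-box genes dre-1 and fbxl-2 had regions but are not on that list.

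Muscle and cytoskeleton genes had regions on both sides of the quartiles of 91.4 and 115. Of 44 body wall muscle genes 4 did (9.09%, interval 2.53 to 21.7). These were pat-4, for integrin-linked kinase (108, with 40.7 and 64.1), unc-54, the major myosin heavy chain (98.4, with 44.94 and 52.7), mlc-2, a myosin light chain (87.3), and let-2, a type IV collagen of basement membranes (86.4). Of 81 cytoskeleton and motor genes 6 did (7.41%, interval 2.77 to 15.4), among them the alpha and beta spectrin genes spc-1 (155, with 79.7 and 75.7) and unc-70 (115, with 49.03 and 69.2), the kinesin genes klp-13 (117) and klp-7 (89.6) and the spectraplakin gene vab-10 (90.8). The spectrin and spectraplakin genes, a list added after the values were seen, thus had a region at 3 of 4. CA repeats were dense at spc-1 and unc-70, with 8 and 5 overlapping copies of CACACA.

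Another 2 lists were added after the values were seen. Of 39 genes of heterotrimeric G protein signalling, which relays signals from surface receptors, 7 had a region (17.9%). They were the Gq alpha gene egl-30 (134, with 52.5 and 81.3), the beta subunit gene gpb-1 (123, with 66.4 and 55.9), the RGS genes eat-16 (122, with 62.6 and 59.8), rgs-6 (94.5) and rgs-1 (87.2), and the alpha subunit genes gpa-7 (87.7) and gsa-1 (86.5). The first 3 were above the upper quartile of the 261 regions and the other 4 below the median. Of 18 heterochronic genes, which time larval cell fates, 6 did (33.3%). They were ain-1, a gene of microRNA silencing (142, with 64.8 and 72.6), lin-66 (106), the corepressor gene din-1 (102), lin-14 (93.8, with 39.9 and 55.1), mab-10 (90.3) and the F-box gene dre-1 (86.1). Since these lists were drawn up from the members, their shares support nothing.

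Of the lists for the body surface, the senses, defence and other functions, chemoreceptor genes and C-type lectin and immune effector genes had shares with intervals below the background of 1.25%, and the intervals of the others that follow include it. Of 1299 chemoreceptor genes 2 had a region (0.154%, interval 0.0187 to 0.555), the neighbours by name srh-34 (89.9) and srh-33 (86.5). Of 156 col genes 1 did (0.641%), col-142 (90.1), and of 159 cuticle, apical matrix and hedgehog-related genes 0 (interval up to 2.29%). Of 343 C-type lectin and immune effector genes 0 did (interval up to 1.07%). Of 361 channel and transporter genes 2 did (0.554%), zipt-9 (99.6) and snf-11 (89.1). Of 144 neuropeptide genes 1 did (0.694%), nlp-14 (86.6), and of 55 neuronal genes 1 (1.82%), sax-7 (93.3). Of 233 detoxification genes 1 did (0.429%), ugt-50 (124), and of 34 intestine genes 0 (interval up to 10.3%). Of 133 mitochondrial genes 2 did (1.504%), cox-5A (110) and mrpl-15 (90.1).

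At 11 genes there were 2 regions. In 6 of them (eel-1, bet-2, rps-24, nhr-40, C09E7.7 and B0348.10) the summits were 200 to 226 bp apart, the regions overlapped, and both matched the same region in each replicate, so that they share replicate values. At T24B8.3, din-1, lit-1, sax-7 and nhr-1 the summits were farther apart, from 820 bp at lit-1 to 13304 bp at sax-7, where they lay at different starts of the same gene. sax-7, for an L1-type adhesion protein of neurons, had signal values of 93.3 and 92.9. din-1 had 102 and 93.3, and its regions leaned to opposite replicates, with 39.8 and 70.8 at the stronger and 61.03 and 27.7 at the other. lit-1 had 97.6 and 95.1.

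Chromosome X held 76 of the 261 regions (29.1%). By gene, 73 of its 2731 coding genes had a region (2.67%, exact interval 2.10 to 3.35) and 177 of 17242 on the autosomes (1.03%), with V lowest at 0.821% and III highest of the autosomes at 1.40%. The median signal value was 101.4 on X and ran from 95.5 on V to 103 on III. Regions on X held a GA or CA repeat in 53.9% of cases, against 42.2% on autosomes. Promoter windows of all genes held them in 14.2% on X and 10.5% on autosomes. The part of sequence content and gene spacing in the share on X was not tested.

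Set against the other regions of the list that lie away from short RNA genes, single-promoter regions differed from those in promoter windows of 2 or more coding genes (92 regions) in 1 of 4 measures, and from regions outside coding promoter windows (336) in 0 of 4. They were above the list's median signal value in 39.8% of cases and the shared ones in 57.6%, a difference of -17.8 points (exact Fisher test, BH-adjusted p = 0.0279 over 8 tests). The difference kept its direction but missed the threshold with a promoter window of 500 bp (exact adjusted p = 0.0817), with the outermost TSS of each gene (exact adjusted p = 0.120) and among the regions above the median signal (exact adjusted p = 0.280). The share that ranked within the optimal list's length in both replicates was 45.2% against 58.7% (exact adjusted p = 0.117). Regions outside coding promoter windows had 33.9% above the median signal (exact adjusted p = 0.291) and 41.7% in both replicates (exact adjusted p = 0.541). The E-box was in 33.3% of single-promoter regions, 33.7% of shared and 33.6% of outside regions (exact adjusted p = 1 for both). GC content above the list's median was found in 44.4%, 33.7% and 49.1% (exact adjusted p = 0.227 and 0.452). GAGAGA was in 27.6%, 13.04% and 21.4%, CACACA in 24.1%, 14.1% and 16.96%, and GGGCGG in 11.1%, 19.6% and 8.33%, for which no test between classes was made.

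**Figure D5:**
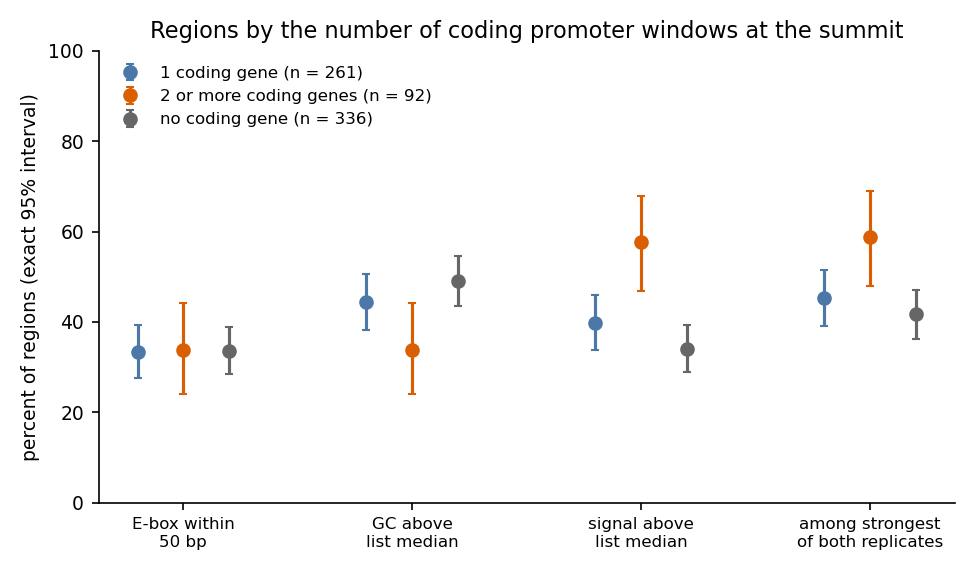
Percent of regions with an E-box within 50 bp of the summit, with GC content or signal above the list's median, and ranked within the optimal list's length in both replicates, for summits in the promoter window of 1 coding gene, of 2 or more, and of none. Points are shares of regions and bars exact 95% intervals, and for signal above the median the shares are 39.8%, 57.6% and 33.9%.

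Just inside the upstream limit were K11D2.4 (999 bp upstream, signal value 113), cpt-1 (982 bp, 94.9) and M01F1.9 (978 bp, 528). Just inside the downstream limit were Y17G7B.21 (200 bp downstream, 91.7), bca-2 (186 bp, 100.3) and egl-30 (181 bp, 134). Nearest outside the upstream limit were ech-2 (1002 bp upstream, 100.9), ugt-18 (1014 bp, 99.2) and sav-1 (1016 bp, 91.7). Nearest outside the downstream limit were alkb-7 (222 bp downstream, 94.3), Y46G5A.23 (227 bp, 96.7) and scpl-3 (230 bp, 86.4). Another 46 regions had their summit in the window of exactly 1 coding gene but within 200 bp of a short RNA gene, and were not counted.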

How the data were processed

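Chromatin from 2 biological replicates of 1 group was immunoprecipitated and sequenced. The authors deposited region lists in the narrowPeak layout for ce11 and ce10. Per the file headers and README texts, each replicate's list and a pooled list were made from alignments and a control as input for IDR. IDR compares how regions rank between lists, and the optimal list came from these. Its regions can still rank very unlike in the replicates, as at lem-2 (108 in replicate 1 and 4350 in replicate 2). The signal value is a score deposited by the authors without a stated scale, and the −log10 q-value, as deposited, ran from 2.16 to 2.63 in these regions. For the aligner, caller, filters and IDR threshold, nothing is given in the sources used here. Depth is unknown, since no list holds counts, and intervals reflect only how many regions or genes were counted.

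The ce11 lists were set against Ensembl release 115 and the NCBI genome (both WBcel235). No region ran past a chromosome end, and the largest end on X was its length, 17718942. The ce10 lists were not used. Summits are 1-based and were assigned with Python 3.11.15, pandas 2.3.3 and numpy 2.4.6, and tests were run with SciPy 1.17.1. Exact McNemar tests compared windows of 50 bp on either side of the summit and of the point 500 bp upstream on the strand of the gene, with BH over 8 sequences besides the E-box. Exact Fisher tests compared classes of regions, with BH over 8 tests. The threshold was an adjusted p of 0.05, all tests were two-sided, and the scripts were tested on simulated data. Alternatives changed the window, TSS set, list, replicate, flank and overlap.

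Members and lists were chosen with earlier results of these data known. Named genes were those of the 30 strongest regions, genes with 2 regions, up to 5 members of each list by signal and those nearest the window limits. Others are said to be chosen after their values were seen. Sequences are from the 12 strongest regions that overlap no exon, and from some of up to 6 more with GAGAGA, chromosome I left out. Product names are from RefSeq. The gene-level result of 1 list member is not reported here.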

Additional observations from a re-analysis of the deposited data

How the results depend on the processing

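Of 130 values under 16 alternatives, 1 of them (leaving out regions that overlap another) chosen after seeing the data, 100 were classed as unchanged. For differences, this means the same direction and side of the threshold. The values also include counts of regions and of sequences that passed, which have neither. Most such counts were classed as unchanged even where they moved, as from 8 to 7 sequences with windows of 25 bp. Differences are in percentage points, single-promoter regions minus the other class. The cause of the changes was not tested, beyond the smaller or larger lists that some alternatives make. The number of regions was 104 among optimal regions above the median signal (the stronger list) and 534 in the pooled list taken to 2 times the optimal list's length (the pooled selection), and 246 and 248 in single replicates. The E-box excess over flanks turned to -0.766 with flanks 1000 bp upstream and ran from 7.66 to 9.35 with a replicate left out, passing without replicate 2. The E-box against shared promoters, -0.362 points, went to -13.6 in the stronger list, 4.61 with the outermost TSS, 1.12 and 1.28 with windows of 25 and 100 bp, 0.233 without overlapping regions, and from -5.20 to 1.60 with a replicate left out. Against regions outside promoters it went to -6.33 in the stronger list, 0.161 with 500 bp from short RNA genes, 5.995 with the outermost TSS, 1.05 with 25 bp and 0.121 without overlapping regions. GC against shared promoters passed at 14.1 with a 2000 bp promoter, 14.6 in the pooled selection and 33.6 with 100 bp windows, and turned to -11.3 with 25 bp. Signal above the median against shared promoters no longer passed at -19.7 with a 500 bp promoter, -16.003 with the outermost TSS and -14.4 in the stronger list. Against outside regions it passed at 10.6 in the pooled selection and ran from 4.49 to 10.5 with a replicate left out, passing without replicate 2. The share in both replicates against shared promoters passed at -13.98 with a 2000 bp promoter and -14.9 in the pooled selection, and turned to 2.59 in the stronger list. It ran from -20.8 to -14.4 with regions taken from 1 replicate's list, passing with those of replicate 2. The share was still counted over the lists of both replicates, so these values are no check without a replicate. Against outside regions it passed at 6.68 in the pooled selection and turned to -1.04 with a 2000 bp promoter, -0.219 in the stronger list and -0.411 with replicate lists taken to 2 times that length. GA and CA repeats and GGGCGG kept their excess and their call under every alternative run, but none of these matched GC content. Within the GC range of the summits described above, GGGCGG was in 10.4% of promoter windows and 12.3% of regions. GAGAGA was then in 16.5% and 28.3%, and CACACA in 9.59% and 23.9%. TAATTA lost its call in the stronger list and with downstream flanks, and GATAA with windows of 25 bp. With 2 replicates and no read counts, the spread of a region's signal cannot be estimated.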

Other observations

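Beyond the hexamers tested, all hexamers were ranked by the difference between summits and upstream flanks, without a test. GAGAGA led. AGAGAG was in 62 summit windows and 6 flanks, CCTCTC in 56 and 4, CTCTCC in 53 and 6, and ACACAC in 52 and 9. CGCACA was in 48 and 6, and CGTCTC in 44 and 6. TTGCAA, a palindrome seen in several of the strongest windows and chosen after they were seen, was in 8 of the 30 strongest regions but in 14 of all 261 (5.36%), 18 flanks and 5.52% of all promoter windows. In the other classes of the list, it was in 21 of 92 shared-promoter regions, 3 of 336 outside promoters and 10 of 223 near short RNA genes. These counts were not tested.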
